A study of Mus musculus with 16 samples.

Results

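The comparison set aortic valves of hypertensive mice against those of normotensive mice, whatever their Apoe genotype. It pooled 7 libraries of mice that carried the human renin and human angiotensinogen transgenes, 4 HT and 3 HC/HT, against 8 libraries of mice without them, 4 CON and 4 HC. Samples were taken by their group label, so no measured value chose them, and they were 15 of the 16 samples of the series. HT mice carried both transgenes with an intact Apoe gene, and HC/HT mice carried both transgenes on the ApoE knockout. CON mice had neither change, and HC mice had the ApoE knockout alone. The strain background of every mouse was C57BL/6J. HT held 2 females and 2 males, HC/HT 2 females and 1 male, CON 1 female and 3 males, and HC 3 females and 1 male. The sources used here give no age, diet, blood pressure or transgene promoter. The design names 4 mice per group; nothing in the labels says whether mice shared a litter, and p-values measure the spread between these libraries.

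The series was made to study fibrotic stenosis of the aortic valve. cDNA was amplified from 1 ng of total RNA and sequenced, and 1 value per gene was deposited for each library. The valve leaflet is made of interstitial cells, which are fibroblast-like and lay down collagen, proteoglycans and elastic fibres, under a sheet of endothelial cells that faces the blood, with resident macrophages between them. Renin cuts angiotensinogen to angiotensin I, which the converting enzyme turns into angiotensin II; mouse renin does not cut human angiotensinogen well, which is why both human genes are supplied. Angiotensin II constricts vessels and acts on fibroblasts and macrophages, and raised pressure loads the leaflets with strain.

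All levels below are in units, each being the deposited value scaled so that all rows other than RN45S, AK018753, GU332589 and AK140265 sum to 1000000 in each library. Where 3 levels are given for hypertensive or normotensive valves, they are the lowest, the median and the highest library. A deposited value of 1 is worth between 0.145 and 0.263 units. The deposited totals were between 10207928 and 10210305 in all 15 libraries, so sequencing depth cannot be read from them, and counting error is not given. The 4 rows left out of the scaling, among them the ribosomal RNA precursor RN45S, held 52.9 ± 7.60% of the total in hypertensive and 41.5 ± 9.32% in normotensive libraries (mean ± SD, n = 7 and 8, exact permutation p 0.0298, two-sided). Libraries listed between 16006 and 17608 rows above 0. Apoe stood between 4.69 and 19.0 units in the 7 knockout libraries and between 152 and 1606 in the 8 others. The lowest Xist level in the 8 libraries labelled female was 4331 units, and the highest in the 7 labelled male was 26.7. The human transgenes and mouse Ren1 were not analysed here, so the HT label itself was not checked by its own genes. The libraries that correlated least with the others were HT replicate 3 (median Spearman correlation 0.926), HT replicate 2 (0.926) and HC/HT replicate 2 (0.927), all 3 of them hypertensive. For some genes and lists the value without these 3 is given beside the main one. In whole valve RNA, fewer cells of a type and less RNA per cell cannot be told apart.

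No gene passed the test in the pooled comparison. Of 16180 genes tested, 0 were called higher (0.0%) and 0 lower (0.0%) in hypertensive valves at a limma adjusted p under 0.05, and 4 genes shared the smallest adjusted p, 0.0762. They were the anoctamin Ano3 and the transporter Slco5a1, which stood higher, and the endothelial lectin Clec14a and the caveolar coat gene Cavin2, which stood lower. At an unadjusted p under 0.05, 1525 genes (9.43%) were counted, 565 of them higher (3.49%) and 960 lower (5.93%). The median log2 difference of all genes, hypertensive minus normotensive, was -0.04, the median standard error (SE) 0.27, and 7231 differences (44.7%) were positive. Differences above 1 were fitted for 113 genes and below -1 for 171. The balance of directions depended on the scaling: on the values as deposited the median of all genes was -0.30 and 94 genes were counted higher and 2664 lower. With quantile normalisation the same counts were 749 and 762, and without the 20 most abundant rows 753 and 733. Leaving out HC replicate 4 gave the most calls of any single library, 3 higher and 15 lower. Counts of list members at an unadjusted p under 0.05 are to be read against the 3.49% higher and 5.93% lower of all genes, and each difference against the median of -0.04.

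**Figure D1:**
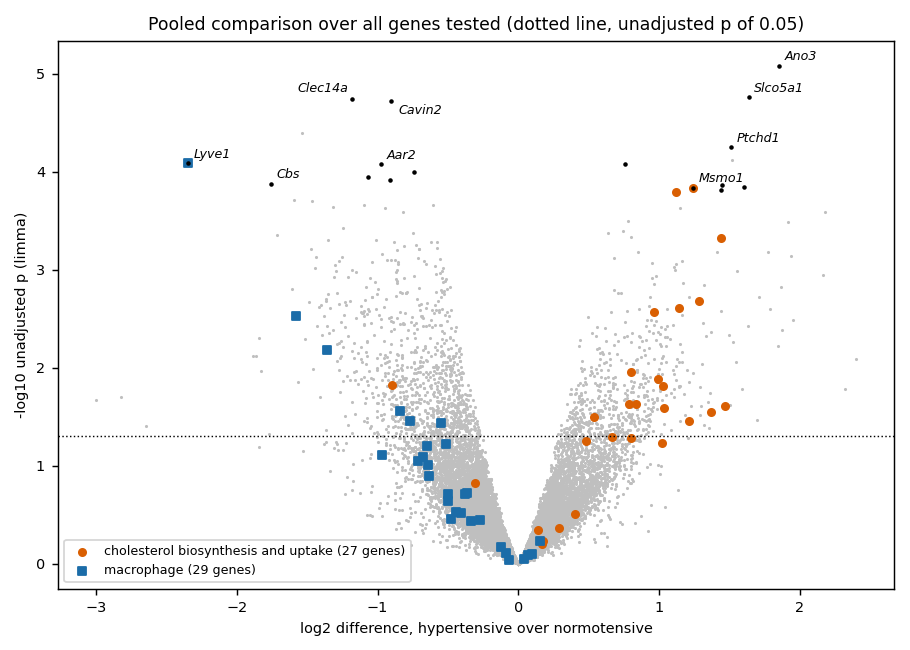
Log2 difference of each of the 16180 genes, hypertensive over normotensive valves, on the horizontal axis, against -log10 of the unadjusted limma p on the vertical axis. Ano3 and Slco5a1 are the highest points on the right and Clec14a and Cavin2 on the left; 25 of the 27 cholesterol biosynthesis and uptake genes (orange circles) are right of 0 and 25 of the 29 macrophage genes (blue squares) are left of it.

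Ano3, at chr2:110655201-110950391 (GRCm38, mm10), encodes a member of the anoctamin family of calcium-regulated membrane proteins. Its levels in HT valves were 16.8, 11.4, 12.1 and 15.7 units and in HC/HT valves 20.8, 16.5 and 14.2. In CON valves they were 7.00, 4.92, 5.48 and 2.78 units and in HC valves 4.22, 4.32, 2.59 and 0.427. All 7 hypertensive libraries lay above all 8 normotensive ones, with a gap between 11.4 and 7.00 units. The log2 difference was 1.86 ± 0.32 (SE), 1.41 for HT against CON and 2.35 for HC/HT against HC. Its adjusted p went under 0.05 in 6 of 31 alternatives.

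Slco5a1, a member of the organic anion transporter family, lies at chr1:12866549-12992796. HT valves had 12.7, 14.8, 17.1 and 19.0 units and HC/HT valves 19.7, 21.7 and 12.7, against 11.5, 3.19, 4.03 and 2.32 in CON valves and 2.56, 5.81, 5.32 and 8.32 in HC valves. Again the groups did not overlap, although CON replicate 1 at 11.5 units came close to the lowest hypertensive library at 12.7. Its difference was 1.64 ± 0.30, or 1.70 for HT against CON and 1.57 for HC/HT against HC. In these units only 17 genes of the 16180 separated the groups completely, 5 higher (0.0309%) and 12 lower (0.0742%). For some of them near the floor, named below, only the scaling set the nearest libraries apart.

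Clec14a is a lectin of the endothelial surface, at chr12:58264720-58269258. The lowest, median and highest levels were 11.1, 25.8 and 39.7 units in hypertensive valves and 35.1, 57.4 and 93.0 in normotensive valves. In 5 of 7 hypertensive libraries it lay below every normotensive one, and HC/HT replicate 1 was lowest. The difference was -1.18 ± 0.21, -1.29 for HT against CON and -1.06 for HC/HT against HC, and in 31 alternatives it ran between -1.57 and -0.78.

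Cavin2, also known as Sdpr, encodes a coat protein that shapes caveolae, flask-like pits of the cell membrane, and lies at chr1:51289126-51302960. Hypertensive valves had 66.1, 102 and 208 units (lowest, median and highest) and normotensive valves 132, 205 and 312. By group, HT libraries stood between 93.3 and 208 units against 231 to 312 in CON, and HC/HT libraries between 66.1 and 102 against 132 to 179 in HC. Within each genotype the libraries with the transgenes lay below those without them. Its difference was -0.90 ± 0.16, and without the 3 least correlated libraries it was -0.81.

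**Figure D2:**
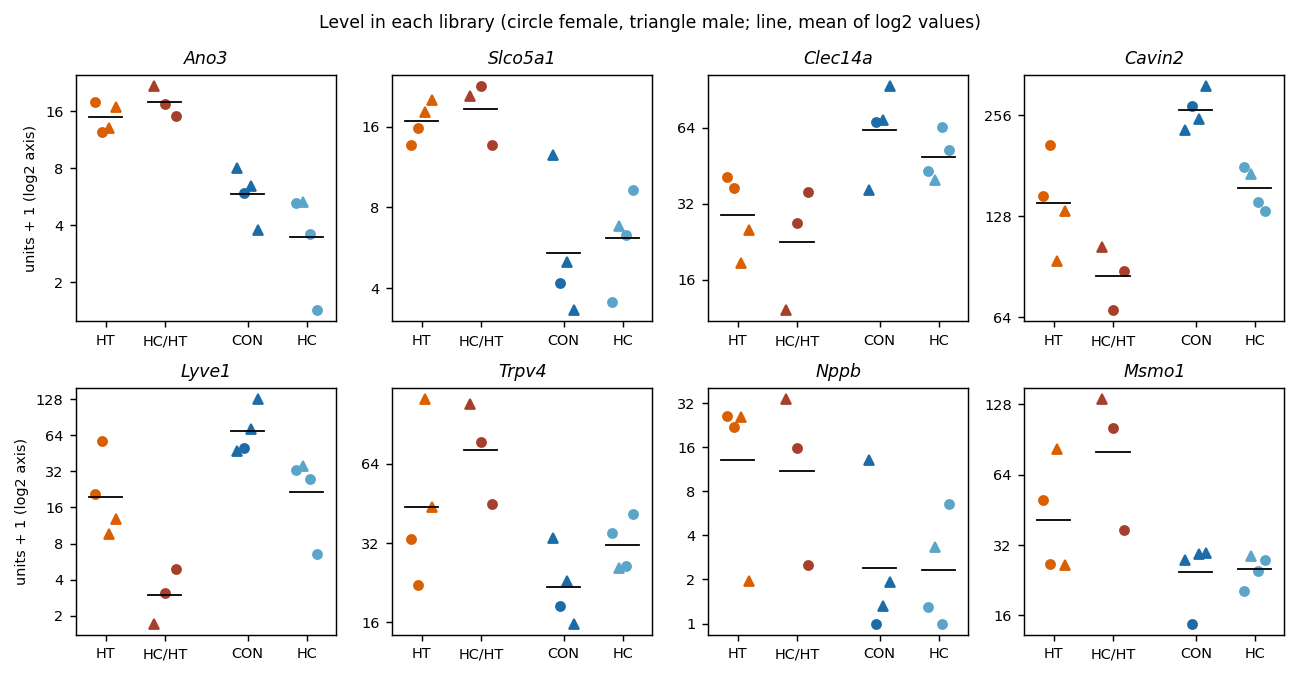
Level of 8 genes in every library, in units plus 1 on a log2 axis, by group, with females as circles, males as triangles and the mean of the log2 values as a line. In Ano3 and Slco5a1 every HT and HC/HT point is above every CON and HC point. In the 6 other genes the pooled hypertensive libraries overlap the pooled normotensive ones.

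Lyve1, which binds hyaluronan on lymphatic endothelium and some resident macrophages, had the largest negative difference among the 8 lower genes of smallest p, -2.34 ± 0.45 (adjusted p 0.136). HT valves had 19.6, 56.6, 8.67 and 11.7 units and HC/HT valves 0.716, 2.08 and 3.86. CON valves had 46.8, 49.5, 71.9 and 128 units and HC valves 31.8, 34.5, 26.5 and 5.55. The 3 HC/HT libraries were the lowest of all 15, while HT replicate 2 lay among the CON libraries and HC replicate 4 among the hypertensive ones. Lyve1 passed in 4 of 31 alternatives, with an adjusted p of 0.0268 without HC replicate 4 and 0.00631 in males alone. Its difference was -2.49 without the 3 least correlated libraries.

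Aar2, a factor that assembles the U5 particle of the spliceosome, had 9.17, 12.7 and 19.3 units in hypertensive valves and 21.6, 25.8 and 40.7 in normotensive valves, with no overlap, and a difference of -0.97 ± 0.20. Fhl1, a LIM-domain protein of muscle and fibroblasts, had 201, 251 and 369.7 units in hypertensive and 298, 477 and 601 in normotensive valves (-0.74 ± 0.15). The dUTPase Dut (-1.07 ± 0.23), the matrix protein gene Ecm2 (-0.91 ± 0.19) and the cystathionine synthase Cbs (-1.76 ± 0.38) complete the 8 lower genes of smallest p. For each of Fhl1, Dut, Ecm2 and Cbs, 4 of the 7 hypertensive libraries lay below all 8 normotensive ones. Adjusted p was 0.136 for Aar2 and 0.137 for the other 4.

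After Ano3 and Slco5a1, Ptchd1 and Ralgapa2 had the smallest p among the higher named protein-coding genes. Ptchd1, a patched-domain membrane protein, had 5.19, 22.3 and 75.8 units in hypertensive and 5.16, 7.15 and 15.3 in normotensive valves (1.51 ± 0.30). Ralgapa2, a subunit of the complex that inactivates Ral GTPases, had 109, 183 and 265 in hypertensive and 87.5, 99.995 and 138 in normotensive valves (0.76 ± 0.16). In both genes 5 of 7 hypertensive libraries exceeded all 8 normotensive ones. Chek1, the checkpoint kinase, had 2.08, 7.72 and 9.98 units in hypertensive and 0.806, 2.17 and 3.16 in normotensive valves (1.44 ± 0.31), with 6 of 7 libraries above. Crhbp, which binds corticotropin-releasing hormone, and Neto2, a kainate receptor subunit, were near the floor in normotensive valves, with medians of 2.69 and 4.47 units in hypertensive valves against 0.41 and 0.308 in normotensive valves. Msmo1, a sterol-demethylating enzyme, is described with its pathway below.

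The other genes whose groups did not overlap were chosen after seeing their values. Those that stood lower included Il6st, the shared signalling receptor of the interleukin 6 family, at 375, 619 and 695 units in hypertensive and 708, 814 and 1149 in normotensive valves (-0.58 ± 0.14). Vegfd, a growth factor for lymphatic vessels, had 11.3, 18.4 and 20.9 units in hypertensive and 21.0, 28.4 and 52.0 in normotensive valves (-0.88 ± 0.22), and the junction protein gene Jam3 had 9.46, 17.6 and 19.6 in hypertensive and 22.0, 25.5 and 46.9 in normotensive valves (-0.85 ± 0.22). Cd1d1, which presents lipids to T cells, had 0, 0.429 and 0.694 units in hypertensive and 0.853, 2.78 and 5.34 in normotensive valves, and Nsa2, a ribosome assembly factor, 65.4, 88.5 and 100.05 in hypertensive and 107, 129 and 163 in normotensive valves. Adjusted p was 0.147 for Cd1d1 and 0.201 for the other 4. Cd1d1 was near the floor: its highest hypertensive and its lowest normotensive library had the same deposited value, and only the scaling set them apart. The ubiquitin-conjugating enzymes Ube2h (-0.48) and Ube2e1 (-0.75), the splicing factor Syf2 (-0.50), the carbonyl reductase Cbr3 (-0.97), Ccdc90b (-0.49) and the NF-kappa B inhibitor Nfkbib (-0.73) were the remaining separated genes on the lower side. On the higher side stood Anks1b (1.12), Catsperd (1.12) and the unannotated transcript AK009121 (1.52), the last 2 under 4 units in every library. In Catsperd and AK009121, too, the lowest hypertensive and the highest normotensive library had the same deposited value.

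Genes of the renin-angiotensin system stood mostly lower. Of 11 list genes tested 2 had a positive difference, with a median of -0.31, and 0 higher and 4 lower had an unadjusted p under 0.05, where all genes gave 3.49% and 5.93%. Mme, neprilysin, which degrades angiotensins and natriuretic peptides, had 0.525, 10.8 and 26.5 units in hypertensive and 13.4, 26.8 and 39.2 in normotensive valves (-1.52 ± 0.47, adjusted p 0.286). Its lowest value was in HT replicate 3, and 5 of 7 hypertensive libraries lay below every normotensive one. The Mme difference was -0.47 in females alone and -2.80 in males alone. Agtrap, which draws the angiotensin II type 1 receptor from the membrane, had 14.0, 17.3 and 26.2 units in hypertensive and 19.0, 29.5 and 36.1 in normotensive valves (-0.59 ± 0.20). The aminopeptidase Anpep had 156, 245 and 428 in hypertensive and 221, 354 and 471 in normotensive valves (-0.41 ± 0.16), and the receptor Agtr1a was low throughout, at 0, 0.429 and 3.37 in hypertensive and 0, 1.47 and 8.39 in normotensive valves (-1.06 ± 0.48). Ace, the converting enzyme, had 212, 298 and 524 units in hypertensive and 135, 289 and 339.9 in normotensive valves, a difference of 0.26 ± 0.20 that turned to -0.04 on the values as deposited. Mouse Agt, angiotensinogen itself, did not reach the filter and stood at 5.19 units or less in every library, with a median of 0 in hypertensive and 0.161 in normotensive valves. The list median was -0.15 without the 3 least correlated libraries, and the Anpep difference -0.21.

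Stretch, natriuretic and endothelin genes were split, with 12 of 20 positive, a median of 0.16 (-0.15 on the values as deposited and 0.00 without the 3 least correlated libraries), and 4 higher and 0 lower at an unadjusted p under 0.05. Trpv4, a cation channel opened by strain and flow, had 21.3, 44.0 and 111 units in hypertensive valves and 14.8, 24.9 and 40.3 in normotensive valves (1.15 ± 0.26, adjusted p 0.147). It stood highest in HT replicate 3, HC/HT replicate 1 and HC/HT replicate 2, and its difference was 1.16 for HT against CON and 1.15 for HC/HT against HC. Piezo1, another stretch-gated channel, had 103, 146 and 197 units in hypertensive and 67.9, 103 and 151 in normotensive valves (0.52 ± 0.19). Edn1, the precursor of the vasoconstrictor endothelin 1, had 9.08, 40.2 and 213 units in hypertensive and 7.24, 14.4 and 21.6 in normotensive valves (1.59 ± 0.58, adjusted p 0.39). The same 3 libraries held the highest Edn1 levels, from 71.7 to 213 units, while HT replicates 2 and 4 stood at 9.08 and 9.41, below the normotensive median. Without the 3 least correlated libraries the Edn1 difference was 1.13 and that of Trpv4 0.98. The list median was 0.24 for HT against CON and 0.00 for HC/HT against HC.

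Both natriuretic peptides spread widely. Nppb, the B-type peptide released by strained muscle, had 25.1, 21.0, 24.7 and 0.96 units in HT valves and 33.1, 14.8 and 1.501 in HC/HT valves, against 12.1, 0, 0.323 and 0.928 in CON valves and 0.301, 2.33, 0 and 5.55 in HC valves. In 5 of 7 hypertensive libraries it exceeded all 8 normotensive ones, and the difference was 2.404 ± 0.78 (adjusted p 0.335), or 1.79 without the 3 least correlated libraries. Nppa, the atrial peptide, had 4.30, 16.1 and 5174 units in hypertensive and 1.67, 17.6 and 264 in normotensive valves (0.63 ± 1.39), and its highest value, in HT replicate 2, was 5174 where the next hypertensive library had 119.5. Without HT replicate 2 the Nppa difference was -0.29. Cardiomyocyte genes moved with it: the summed level of that list, 28 genes with Nppa and Nppb among them, was 36116 units in HT replicate 2 and between 361 and 6961 in all other libraries. No gene of the list was at 0 in every library, and the part of heart muscle in the Nppb and Nppa levels was not tested. In HC/HT replicate 1 and CON replicate 1, which held the highest hypertensive and the highest normotensive Nppb level, the cardiomyocyte sum was 686 and 6961 units.

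Endothelial genes showed no common direction. Of 22 tested, 11 were positive, the median was 0.03 (-0.27 on the values as deposited), and 2 higher and 4 lower had an unadjusted p under 0.05. Beside Clec14a, the receptor Gpr182 had 13.1, 26.1 and 51.7 units in hypertensive and 37.5, 46.6 and 59.0 in normotensive valves (-0.88 ± 0.21, adjusted p 0.201), with 5 of 7 hypertensive libraries below all normotensive ones. Von Willebrand factor, Vwf (-0.47 ± 0.18), and endomucin, Emcn (-0.42 ± 0.18), also had negative differences. The arterial transcription factor Sox17 had 4.29, 15.3 and 50.7 units in hypertensive and 1.39, 5.94 and 11.3 in normotensive valves (1.501 ± 0.47), and the guidance receptor Robo4 had 9.02, 24.2 and 48.5 in hypertensive and 8.98, 14.8 and 19.0 in normotensive valves (0.68 ± 0.25). The summed level of the list was 3530.2, 4432 and 6144 units in hypertensive and 3223, 4209.5 and 5165 in normotensive valves, overlapping widely. For endothelial genes the median was -0.18 in females and 0.33 in males, -0.07 without HC/HT replicate 1 and 0.11 without the 3 least correlated libraries.

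Genes that respond to shear had 10 positive differences among 16, a median of 0.06 (-0.24 on the values as deposited and -0.02 without HC/HT replicate 1), and 5 higher and 0 lower at an unadjusted p under 0.05, where 3.49% and 5.93% of all genes were. Nos3, endothelial nitric oxide synthase, had 66.2, 118 and 192 units in hypertensive and 38.9, 74.3 and 124 in normotensive valves (0.75 ± 0.24, adjusted p 0.281). Thrombomodulin, Thbd, had 318, 674 and 1313 in hypertensive and 307, 349 and 546 in normotensive valves (0.76 ± 0.29), and the protein C receptor Procr 30.4, 105 and 158 in hypertensive and 17.6, 38.2 and 86.9 in normotensive valves (1.02 ± 0.39); both act in the anticoagulant protein C pathway. The prostaglandin synthase Ptgs2 had a difference of 1.15 ± 0.49, 1.79 for HT against CON and 0.43 for HC/HT against HC, and Angpt2 one of 0.51 ± 0.24. Thbd stood at 1313 units in HT replicate 3 and 1227 in HC/HT replicate 1. In HT replicates 2 and 4 and HC/HT replicate 3 it stood at 318, 322 and 430, within the normotensive range. Nos3, Thbd, Procr and Ptgs2 had 0.42, 0.29, 0.30 and 0.40 in females alone, and 1.22, 1.22, 1.75 and 1.93 in males alone. Of 10 caveolae genes 2 were positive, with a median of -0.17 (-0.09 without HT replicate 4) and 1, Cavin2, at an unadjusted p under 0.05. The other coat and core genes lay closer to 0, with differences of -0.21 ± 0.18 for Cavin1, -0.24 ± 0.18 for Cav2 and 0.22 ± 0.15 for Ehd2. The caveolae median was -0.20 for HT against CON and -0.05 for HC/HT against HC, and Cavin1 had -0.09 without the 3 least correlated libraries.

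Among adhesion genes 8 of 14 differences were positive and the median was 0.08 (-0.22 on the values as deposited), 2 higher and 1 lower at an unadjusted p under 0.05. The lower one was Jam3, given above, with -0.56 without the 3 least correlated libraries. The monocyte attractant Ccl2 had 12.7, 74.1 and 166 units in hypertensive and 8.11, 21.9 and 69.4 in normotensive valves (1.19 ± 0.49). Vcam1, the leukocyte adhesion molecule, had 368, 1045 and 1547 units in hypertensive and 448, 707 and 1231 in normotensive valves (0.48 ± 0.26, adjusted p 0.597), with overlapping groups.

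Cholesterol synthesis and uptake genes stood higher more than any other list described here. Cells make cholesterol from acetyl units through mevalonate and squalene, and take it up from lipoproteins; the SREBP factors turn both on together when membrane sterol is low. Of the 27 genes of the list, all of which were tested, 25 had a positive difference and 16 had an unadjusted p under 0.05 on the higher side, where 3.49% of all genes did, with 1 on the lower side. Their median was 0.84, against -0.04 for all genes, and 0 passed at the adjusted p. The list was known to stand higher from earlier results of these data, and its count is no independent support.

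Hmgcs1, which makes the precursor of mevalonate, is shown because its promoter held the sterol regulatory element TCACNCCAC, the letters that SREBP factors are known to bind. The stretch is chr13:119690174-119690262 on the plus strand of GRCm38.p6 (RefSeq), 5′ to 3′, with the element in capitals, its first base at -137 from the start site.
Hmgcs1: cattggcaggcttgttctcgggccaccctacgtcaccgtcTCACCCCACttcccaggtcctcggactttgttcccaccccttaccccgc
The element was searched on both strands in the 250 bases before each start site. It was found in 1 of the 19 list genes with a window (5.26%), in 146 of 11595 tested genes (1.26%) and in 331 of 27025 genes in all (1.22%). In the other 18 these letters are not in this window, which says nothing of the factor.

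Hmgcs1 had 71.8, 42.3, 115 and 31.1 units in HT valves and 220.3, 149.7 and 41.2 in HC/HT valves, against 51.6, 31.1, 34.7 and 18.6 in CON valves and 30.4, 32.2, 37.0 and 31.6 in HC valves. The 4 highest libraries were all hypertensive, and the other 3 hypertensive libraries lay among the normotensive ones. Its difference was 1.29 ± 0.35 (adjusted p 0.237). For HT against CON the difference was 0.92, and for HC/HT against HC it was 1.70.

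The later enzymes are given next. Msmo1 had 25.2, 48.7 and 134 units in hypertensive and 13.8, 26.7 and 28.5 in normotensive valves (1.24 ± 0.27), and Cyp51, which acts before it on lanosterol, 26.2, 64.2 and 153 in hypertensive and 24.8, 28.1 and 42.7 in normotensive valves (1.14 ± 0.32). In both Hmgcs1 and Msmo1 the 3 highest libraries were HT replicate 3, HC/HT replicate 1 and HC/HT replicate 2. Acat2, which makes acetoacetyl-CoA in the cytosol, had 6.91, 13.1 and 45.0 units in hypertensive and 5.34, 7.40 and 11.8 in normotensive valves (0.97 ± 0.28). The 2 negative members were Ebp, a sterol isomerase (-0.90 ± 0.34), and Srebf1, the SREBP factor tied more to fatty acid synthesis (-0.30 ± 0.20).

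The summed level of the list was 431, 858 and 2303 units in hypertensive and 399.7, 542 and 586 in normotensive valves. It was 1551 in HT replicate 3, 1670.4 in HC/HT replicate 2 and 2303 in HC/HT replicate 1. HT replicate 1 had 858 units, and HT replicates 2 and 4 and HC/HT replicate 3 had 449, 431 and 619.7, at or near the normotensive range. The median difference was 0.67 for HT against CON and 1.18 for HC/HT against HC, 0.63 in females and 1.15 in males, and 0.57 without the 3 least correlated libraries. Leaving out 1 library at a time gave medians from 0.68 (without HC/HT replicate 1) to 1.03 (without HC/HT replicate 3). Genes of lipid handling and LXR targets, which cover lipid uptake, storage, synthesis and export, had 7 positive differences among 27 and a median of -0.23. At an unadjusted p under 0.05 stood 0 higher and 2 lower, Pparg (-0.97 ± 0.39) and the lipid droplet coat Plin2 (-0.45 ± 0.22). Lipid handling and LXR genes had a median of 0.01 in females and -0.36 in males, -0.12 without HT replicate 4 and -0.15 without the 3 least correlated libraries.

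**Figure D3:**
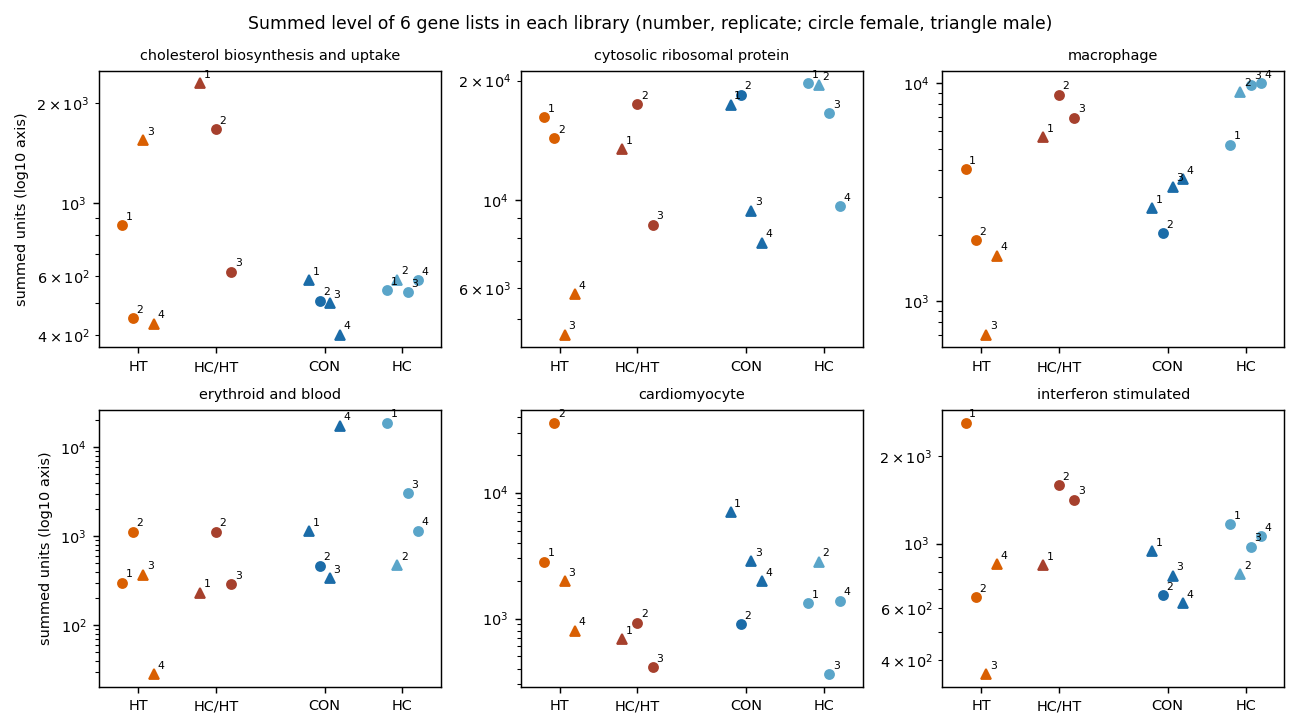
Summed level of 6 gene lists in each library, in units on a log10 axis, by group; numbers are replicates, circles females and triangles males. The cholesterol list is high in HC/HT 1, HC/HT 2 and HT 3, the cardiomyocyte list in HT 2 alone, and the blood list in CON 4 and HC 1.

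Interstitial and fibroblast markers stood lower. Of 19 tested 2 were positive, the median was -0.48, and 1 higher and 9 lower had an unadjusted p under 0.05, against 3.49% and 5.93% of all genes. Dermatopontin, Dpt, a matrix protein of fibroblasts, had 263, 892 and 1361 units in hypertensive and 639.6, 1815 and 2651 in normotensive valves (-1.22 ± 0.33, adjusted p 0.241). Of the hypertensive libraries 2 lay below the normotensive range, whose lowest library was HC replicate 4 at 639.6 units. The PDGF receptors Pdgfrb (-0.48 ± 0.16) and Pdgfra (-0.74 ± 0.27), the fibroblast transcription factor Tcf21 (-1.17 ± 0.42) and Islr (-0.64 ± 0.19) also had negative differences, whereas the fibroblast marker Pi16 had 91.8, 108 and 163 units in hypertensive and 51.0, 76.3 and 147 in normotensive valves (0.57 ± 0.19). The list median was -0.56 for HT against CON and -0.40 for HC/HT against HC, and -0.32 without the 3 least correlated libraries. The Pdgfrb difference was -0.32 in that last setting.

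Fibrillar collagens and their crosslinking enzymes were nearly balanced: 10 of 21 were positive, the median was -0.06 (0.02 with quantile normalisation), and 0 had an unadjusted p under 0.05 in either direction. Col1a1, the main chain of type I collagen, had 484, 652 and 912 units in hypertensive and 519, 689.9 and 1151 in normotensive valves (-0.10 ± 0.18; 0.02 without HC/HT replicate 1). Col3a1 had 518, 688 and 1954 units in hypertensive and 546, 902 and 3628 in normotensive valves (-0.47 ± 0.31), with HC replicate 2 highest. Periostin, Postn (-0.15 ± 0.19), fibronectin, Fn1 (-0.11 ± 0.24), and Tgfb1 (-0.19 ± 0.29) lay within 1 SE of 0, and the sign of each turned in at least 1 alternative. With 7 and 8 libraries the SE of Col1a1 was 0.18, so a difference of that order was not detectable. For the collagen list the median was -0.14 without HC replicate 4 and 0.08 without HC replicate 3.

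Proteoglycan and hyaluronan genes were mixed, with the smaller p-values on the lower side. Of 23 tested 10 were positive, the median was -0.23 (-0.12 without HC/HT replicate 3), and 0 higher and 4 lower had an unadjusted p under 0.05. Decorin, Dcn, which binds collagen fibrils and TGF-beta, had 3559.5, 4936 and 8950.4 units in hypertensive and 4699.9, 7941 and 9706 in normotensive valves (-0.57 ± 0.20, adjusted p 0.348). Prelp had 1284, 2727 and 3797 in hypertensive and 1988, 3338 and 5161 in normotensive valves (-0.47 ± 0.19), and osteoglycin, Ogn, 17.6, 43.2 and 419 in hypertensive and 49.5, 200.3 and 372 in normotensive valves (-1.37 ± 0.60). Ogn stood at 419 units in HT replicate 2, the highest of all libraries, and at 17.6 in HT replicate 3, the lowest. Hapln1, the link protein of hyaluronan and versican, had a difference of -0.32 ± 0.14. Prelp and Hapln1 had -0.28 and -0.19, and the list median was -0.14, without the 3 least correlated libraries.

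Among basement membrane and elastic fibre genes 13 of 27 were positive, the median was -0.02 (0.01 with median-of-ratios factors), and 2 higher and 4 lower had an unadjusted p under 0.05. Mfap4, which binds elastic fibres, had 72.0, 283 and 502 units in hypertensive and 388, 628 and 767 in normotensive valves (-1.31 ± 0.33, adjusted p 0.208), and HT replicate 3 was lowest. Fibulin 1, Fbln1, had 99.8, 232 and 348 units in hypertensive and 205, 348 and 469.8 in normotensive valves (-0.66 ± 0.22), and Mfap2 a difference of -0.73 ± 0.27. The laminin chain Lama5 (0.64 ± 0.24) and the type IV collagen Col4a2 (0.67 ± 0.25) were the higher ones. Of 20 matricellular genes 7 were positive with a median of -0.11, 1 higher, Ccn4 (0.81 ± 0.31), and 2 lower, Thbs3 (-0.61 ± 0.22) and Tnxb (-0.81 ± 0.34), at an unadjusted p under 0.05. Fbln1 and Ccn4 had -0.41 and 0.42 without the 3 least correlated libraries. The basement membrane median was -0.11 in females, 0.07 in males and 0.07 without HT replicate 4. The matricellular median was -0.23 without HT replicate 1, -0.04 without HC/HT replicate 3 and -0.03 without the 3 least correlated libraries.

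Matrix proteases and inhibitors had 8 positive differences of 22, a median of -0.21, and 2 higher and 5 lower at an unadjusted p under 0.05. Adamts8, a protease that cleaves aggrecan-type proteoglycans, had 96.6, 81.5, 376 and 71.6 units in HT valves and 277, 167 and 118 in HC/HT valves, against 74.2, 30.0, 38.4 and 5.34 in CON valves and 93.7, 38.4, 43.4 and 84.2 in HC valves. In 5 of 7 hypertensive libraries it exceeded all normotensive ones, with a difference of 1.88 ± 0.53 (adjusted p 0.264) and 1.59 without the 3 least correlated libraries. Mmp19 (-0.71 ± 0.20), cathepsin K, Ctsk (-0.68 ± 0.24), and Adamts5 (-0.47 ± 0.18) had negative differences. Adamts9 had 16.9, 31.7 and 72.5 units in hypertensive and 12.3, 16.2 and 29.2 in normotensive valves (0.70 ± 0.27). For the protease list the median was -0.34 without HC replicate 4 and -0.13 without the 3 least correlated libraries.

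Ligands of the TGF-beta family went both ways. Of 24 TGF-beta and BMP genes 11 were positive, the median was -0.09, and 3 higher and 5 lower had an unadjusted p under 0.05. Tgfb3 had 27.7, 65.1 and 91.0 units in hypertensive and 69.1, 86.7 and 124 in normotensive valves (-0.69 ± 0.20), Bmp4 52.8, 72.0 and 99.2 in hypertensive and 73.7, 89.3 and 136 in normotensive valves (-0.49 ± 0.15), and the co-receptor Tgfbr3 a difference of -0.50 ± 0.17. Inhba, the activin A chain, had 152, 375 and 1519 units in hypertensive and 137, 196 and 355 in normotensive valves (1.15 ± 0.41), with HT replicate 3 at 1519, and Bmp2 had 27.0, 61.5 and 292 in hypertensive and 19.1, 29.4 and 53.4 in normotensive valves (1.30 ± 0.51). Tgfb2 had a difference of 0.57 ± 0.24. Adjusted p for these 6 genes ran from 0.246 to 0.46. Tgfb3 had -0.32 without the 3 least correlated libraries, and the list median was then 0.01. It was -0.17 without HC/HT replicate 3 and -0.04 without HT replicate 2.

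Notch and Wnt genes had 13 positive differences of 30, a median of -0.10, and 4 higher and 6 lower at an unadjusted p under 0.05. Hey1, a target of Notch, had 4.99, 20.4 and 28.5 units in hypertensive and 23.4, 34.0 and 57.1 in normotensive valves (-1.003 ± 0.28), and Heyl 15.6, 39.6 and 95.6 in hypertensive and 48.2, 72.7 and 114 in normotensive valves (-0.74 ± 0.28), while the ligand Jag1 had 53.4, 75.9 and 116 in hypertensive and 40.3, 60.2 and 71.4 in normotensive valves (0.47 ± 0.18). The Wnt antagonist Sfrp1 had 52.0, 152 and 178 units in hypertensive and 159, 223 and 276 in normotensive valves (-0.80 ± 0.22), the receptor Fzd2 a difference of -0.83 ± 0.28, and the endothelial Wnt ligand Wnt9b 121, 325 and 584 units in hypertensive and 81.0, 143 and 352 in normotensive valves (1.02 ± 0.32). Osteogenic and chondrogenic genes had a median of 0.12 (-0.15 on the values as deposited), with 0 higher and 1 lower, Bglap (-1.05 ± 0.32), at an unadjusted p under 0.05 and under 6 units in every library. Hey1 had -0.63 without the 3 least correlated libraries. The Notch and Wnt median was -0.03 without CON replicate 2, and the osteogenic median -0.02 without CON replicate 4.

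Spp1, osteopontin, a matrix glycoprotein of macrophages and bone, is given by library. HT valves had 111, 51.9, 139 and 17.7 units and HC/HT valves 628, 811 and 521, against 7.77, 35.1, 2.90 and 4.87 in CON valves and 216, 1246, 3258 and 907 in HC valves. Every ApoE knockout library stood above every intact one, the nearest being HC replicate 1 at 216 units and HT replicate 3 at 139. The transgene difference was 2.59 for HT against CON and -0.50 for HC/HT against HC. Pooled over the genotypes it was 1.14 ± 0.79 (adjusted p 0.706), and the term for the difference between genotypes did not pass.

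Contractile genes of myofibroblasts and smooth muscle had 4 positive differences of 23, a median of -0.32, and 0 higher and 3 lower at an unadjusted p under 0.05. They were the kinase Mylk, at 21.8, 35.4 and 168 units in hypertensive and 30.7, 95.2 and 264 in normotensive valves (-0.88 ± 0.35), the light chain Myl9 (-1.23 ± 0.51) and the non-muscle myosin Myh10 (-0.46 ± 0.21). Acta2, smooth muscle actin, spread from 59.6 to 974 units in hypertensive and 49.6 to 1478 in normotensive valves, with a difference of -0.32 ± 0.78 that was 0.15 in females alone. The list median was 0.03 in females and -0.97 in males, -0.56 without CON replicate 4 and -0.19 without HT replicate 3. Myh10 had -0.21 without the 3 least correlated libraries.

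Genes of retinoid uptake and of aldehyde oxidation stood lower. Stra6, the membrane receptor that imports retinol, had 4.99, 11.8 and 15.4 units in hypertensive and 13.2, 19.0 and 41.4 in normotensive valves (-1.04 ± 0.27, adjusted p 0.201), and 6 of 7 hypertensive libraries lay below all normotensive ones. Its list of 18 retinoid genes had 5 positive differences and a median of -0.32, with 0 higher and 3 lower at an unadjusted p under 0.05, Stra6, the retinal dehydrogenase Aldh1a1 (-0.43 ± 0.20) and the retinal reductase Dhrs3 (-0.43 ± 0.20). Of the 13 other aldehyde dehydrogenases 2 were positive, with a median of -0.39 and 0 higher and 5 lower. Aldh3a1, which oxidises aromatic and fatty aldehydes, had 2.77, 4.67, 1.58 and 2.88 units in HT valves and 7.16, 9.17 and 4.93 in HC/HT valves, against 18.2, 13.2, 12.7 and 16.7 in CON valves and 15.2, 7.81, 5.02 and 12.8 in HC valves. HT lay below CON without overlap while HC/HT overlapped HC, with differences of -2.11 and -0.39, and pooled the difference was -1.30 ± 0.34 (adjusted p 0.201). Aldh7a1 (-0.81 ± 0.24), Aldh9a1 (-0.75 ± 0.28), Aldh5a1 (-0.88 ± 0.38) and Aldh6a1 (-0.54 ± 0.24) were the other lower members. Stra6, Aldh1a1, Dhrs3 and Aldh9a1 had -0.67, -0.26, -0.18 and -0.26 without the 3 least correlated libraries, and the retinoid list median was -0.18.

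Macrophage genes had mostly negative differences in the pooled comparison. Of 29 tested 4 were positive, the median was -0.50, and 0 higher and 6 lower had an unadjusted p under 0.05, where 3.49% and 5.93% of all genes had. These 6 were Lyve1, the transglutaminase F13a1, at 16.6, 27.7 and 65.7 units in hypertensive and 25.6, 96.8 and 262 in normotensive valves (-1.58 ± 0.44), the haemoglobin scavenger Cd163 (-1.36 ± 0.45), the folate receptor Folr2 (-0.84 ± 0.36), the mannose receptor Mrc1 (-0.77 ± 0.33) and Csf1r (-0.55 ± 0.24). Lyve1, F13a1, Cd163, Folr2 and Mrc1 are known markers of resident macrophages. The summed level of the list was 701, 4020.3 and 8803 units in hypertensive and 2045, 4416 and 9958 in normotensive valves, with HT libraries between 701 and 4020.3 against 2045 to 3628 in CON, and HC/HT libraries between 5651 and 8803 against 5203 to 9958 in HC. The list median was -0.73 for HT against CON and -0.18 for HC/HT against HC, 0.13 in females and -1.24 in males, -0.22 without HT replicate 3 and -0.27 without the 3 least correlated libraries.

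The other 3 immune cell lists and complement had negative pooled medians, whose sign was not the same in both sexes. All 14 T, NK and B lymphocyte genes tested had negative differences, with a median of -0.58, yet 1, Cd8a (-1.01 ± 0.44), had an unadjusted p under 0.05, and the median was 0.43 in females and -1.67 in males, and -0.22 without CON replicate 4. MHC class II and antigen presentation genes had a median of -0.30 and 1 lower, the immunoproteasome subunit Psmb8 (-0.85 ± 0.31); without HT replicate 3 the median was -0.06. Neutrophil and mast cell genes had a median of -0.63 and 0 at an unadjusted p under 0.05, and -0.08 without CON replicate 4. Of 20 complement genes 5 were positive, with a median of -0.40 (-0.15 without HT replicate 3), and 1 higher and 4 lower had an unadjusted p under 0.05. In females the median was 0.26 for MHC class II, 0.26 for complement and -0.05 for neutrophil and mast cell genes. In males these medians were -0.94, -1.24 and 0.08. They were -0.01, -0.33 and -0.28 without the 3 least correlated libraries, where Cd8a and Psmb8 had -0.66 and -0.51.

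Most of the complement members named here are regulators of the cascade. Cd59a (-0.57 ± 0.19) and the C1 inhibitor Serping1 (-0.60 ± 0.23) had negative differences, and so did the terminal component C7 (-1.41 ± 0.55), while decay-accelerating factor, Cd55, had 249.9, 383 and 1109.7 units in hypertensive and 178, 221 and 403 in normotensive valves (0.93 ± 0.28). Among 28 chemokines and cytokines the median was 0.10 (-0.08 on the values as deposited), with 3 higher, Il11 (1.10 ± 0.34), Il1a (0.98 ± 0.40) and Ccl2, and 1 lower, the alarmin Il33 (-0.82 ± 0.25). Cd59a had -0.28 without the 3 least correlated libraries. The chemokine and cytokine median was 0.40 in females, -0.11 in males and 0.22 without CON replicate 3.

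Interferon-stimulated genes had 18 positive differences of 22, a median of 0.27 (0.01 on the values as deposited), and 2 higher and 0 lower at an unadjusted p under 0.05. The 2 were the double-stranded RNA sensors Oas2, at 20.2, 63.6 and 104 units in hypertensive and 11.7, 32.5 and 65.1 in normotensive valves (0.86 ± 0.25), and Oas1a (0.86 ± 0.38). HT replicate 1 had the highest summed level, 2599 units, and HT replicate 3 the lowest, 357, with the normotensive libraries between 627 and 1166. The median was 0.00 without HT replicate 1 and 0.48 without HT replicate 3. It was 0.72, with 21 of 22 genes positive, without the 3 least correlated libraries, where Oas1a had 1.38. In females the median was 0.87 and in males -0.12.

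Ribosomal protein genes all stood on the lower side. All 41 had negative differences, between -0.75 and -0.11 with a median of -0.43, and 0 higher and 7 lower had an unadjusted p under 0.05. Rpl4 had 303, 554 and 622 units in hypertensive and 614, 774 and 875 in normotensive valves (-0.58 ± 0.15, adjusted p 0.207), with 6 of 7 hypertensive libraries below all normotensive ones. Rpl10a (-0.59 ± 0.17), Rpl5 (-0.59 ± 0.17) and Rps6 (-0.53 ± 0.18) came next. The medians were -0.40 with median-of-ratios factors and -0.38 with quantile normalisation, and -0.64 for HT against CON and -0.28 for HC/HT against HC. The median was -0.26 in females, -0.94 in males and -0.29 without HT replicate 3. Summed levels overlapped, at 4571, 13430 and 17410 units in hypertensive and 7807, 16955 and 19691 in normotensive valves. In every group replicates 1 and 2 had higher sums than the later replicates, and HT replicates 3 and 4 had the lowest sums, 4571 and 5781. Many of these genes have processed pseudogenes that share reads with them, so single values are uncertain.

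Mitochondrial respiratory chain genes (4 of 32 positive, median -0.25, or -0.06 without HC/HT replicate 3) and oxidative stress genes (3 of 29, median -0.25) also had mostly negative differences. At an unadjusted p under 0.05 stood 1 lower respiratory gene, the succinate dehydrogenase chain Sdha (-0.54 ± 0.17), and 3 lower oxidative stress genes, catalase, Cat (-0.66 ± 0.22), Sod1 (-0.51 ± 0.19) and Gpx4 (-0.71 ± 0.30). Proliferation genes had a median of 0.00 (-0.24 on the values as deposited), 2 higher, Aurkb (1.01 ± 0.39) and Plk1 (0.76 ± 0.33), and 2 lower, Mcm3 (-0.87 ± 0.24) and Mcm4 (-0.50 ± 0.19). The unfolded protein response had a median of -0.14 and 1 lower, Trib3 (-0.97 ± 0.36), and the immediate early list a median of -0.03 (0.01 with quantile normalisation) and 2 lower, Ier2 (-0.62 ± 0.24) and Jun (-0.39 ± 0.17). The respiratory chain median was 0.00 in females, -0.80 in males and -0.41 without the 3 least correlated libraries. It was -0.40 without HT replicate 2, the library with the highest summed level of this list, 5475 units, and of the cardiomyocyte list. Proliferation genes had medians of -0.15 without HT replicate 1 and 0.13 without HT replicate 2, unfolded protein response genes -0.23 without HT replicate 1, and immediate early genes 0.27 without HC replicate 4 and 0.27 without the 3 least correlated libraries.

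Markers of other cells that a dissected valve can hold were measured beside these lists. Blood genes had the most negative median of the 38 lists, -1.67, with all 10 negative, and 0 higher and 5 lower at an unadjusted p under 0.05. Their summed level was 28.2, 299 and 1122 units in hypertensive and 337, 1143 and 18878 in normotensive valves, where CON replicate 4 and HC replicate 1 held 17440.5 and 18878. The globin Hbb-bs had 7.11, 132 and 576 units in hypertensive and 144, 569 and 10455 in normotensive valves (-3.004 ± 1.13), and the platelet factor Pf4 6.04, 18.6 and 55.5 in hypertensive and 30.3, 49.9 and 323 in normotensive valves (-1.56 ± 0.55); globin genes are near-identical copies that share reads. Cardiomyocyte genes had a median of -0.44, 0.14 for HT against CON and -0.89 for HC/HT against HC, -0.96 without HT replicate 2, 0.00 without HT replicate 4 and -1.22 without the 3 least correlated libraries. In females their median was 0.72 and in males -2.12. Adipocyte genes had a median of -0.33 with summed levels of 73.0, 86.3 and 285 units in hypertensive and 77.6, 112 and 167 in normotensive valves, and the median was -0.13 without HT replicate 4, 0.58 in females and -1.10 in males. Melanocyte genes had a median of 0.01 (-0.25 on the values as deposited) and 0 at an unadjusted p under 0.05, with -0.46 for HT against CON and 0.34 for HC/HT against HC. By sex it was 0.36 in females and -0.65 in males. Nerve and Schwann cell genes had a median of 0.01 (-0.28 on the values as deposited) and 1 higher, Mal (1.18 ± 0.44); the median was -0.23 without HC replicate 4, 0.07 in females and -0.17 in males. No gene with a row in these lists was at 0 in every library, and the part of these cells in the results above was not tested.

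**Figure D4:**
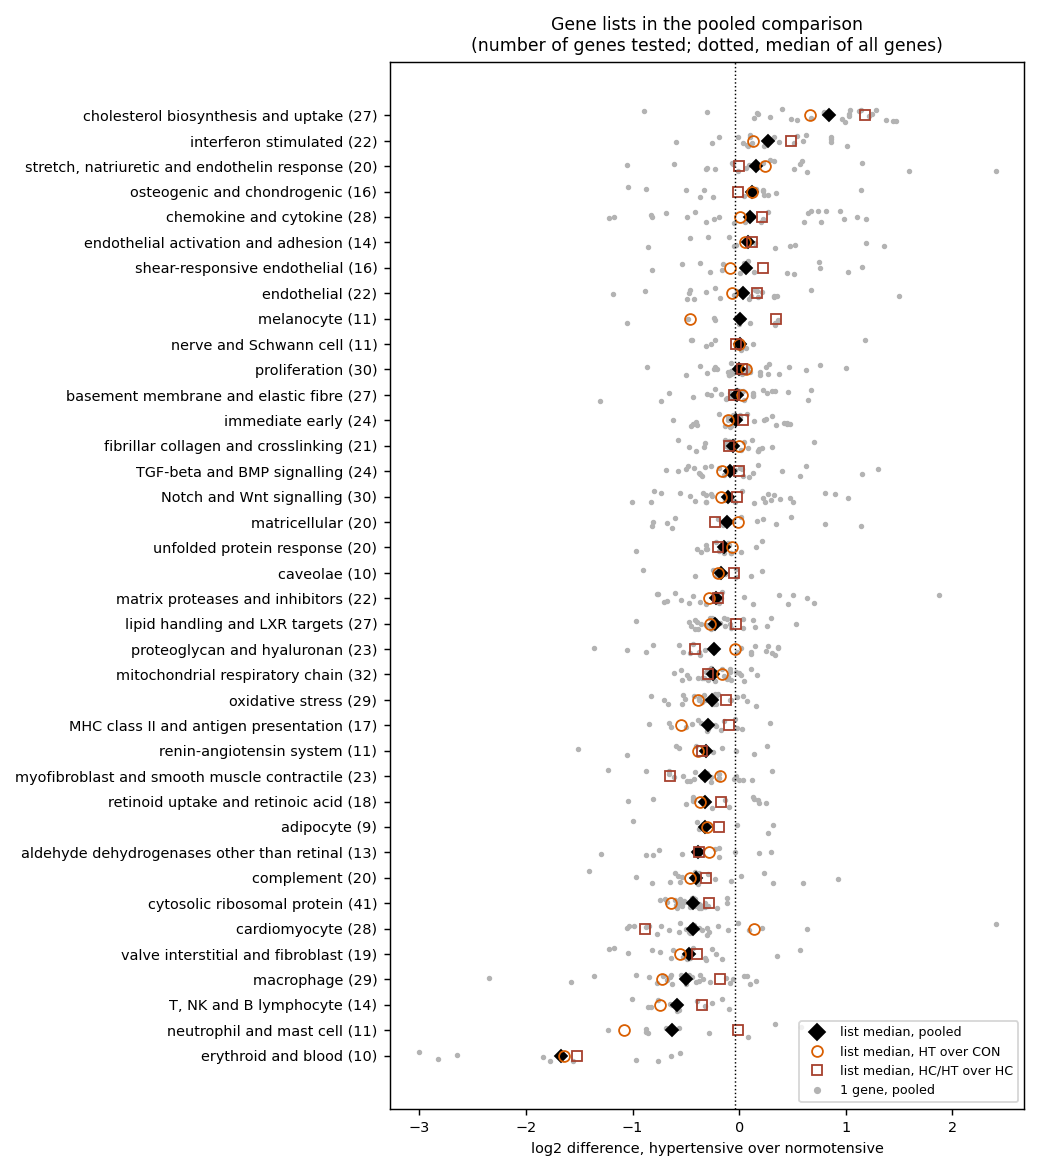
Log2 difference, hypertensive over normotensive valves, of each gene of 38 lists (grey points), with the list median in the pooled comparison (black diamond), for HT over CON (orange circle) and for HC/HT over HC (brown square). The cholesterol list is furthest right, with a median of 0.84, and the blood list furthest left, at -1.67; the dotted line is the median of all genes, -0.04.

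Within each Apoe genotype the same fit gave 0 calls. For HT against CON 945 genes had an unadjusted p under 0.05 and the smallest adjusted p was 0.565, for Aldh3a1; for HC/HT against HC 909 had one and the smallest adjusted p was 0.320, for Trhde, a peptidase. These 2 differences share no library. They had the same sign in 9421 of 16180 genes (58.2%), with a Pearson correlation across genes of 0.284 and a Spearman correlation of 0.256, as a description over genes that are not independent. The test of the difference between the genotypes called 0 genes, with 400 at an unadjusted p under 0.05 and a smallest adjusted p of 0.9997. The 16 genes of smallest p in the pooled comparison all had the same sign in both, as the pooling favours. Lyve1 had -1.92 for HT against CON and -2.83 for HC/HT against HC, and Ptchd1 had 1.48 for HT against CON and 1.56 for HC/HT against HC.

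**Figure D5:**
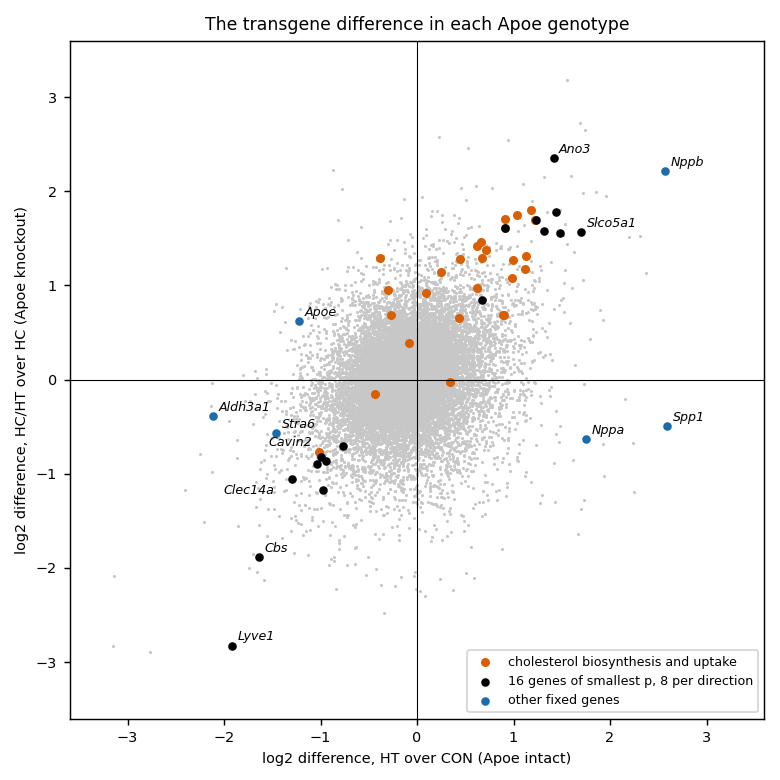
Log2 difference of each gene for HT over CON on the horizontal axis and HC/HT over HC on the vertical axis. The 16 named protein-coding genes of smallest pooled p, 8 per direction (black), lie in the corners of equal sign. Spp1, among the other genes marked in blue, lies right of 0 and below the horizontal line, at 2.59 and -0.50.

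Females and males were unequally spread, so the comparison was also made within each sex. In females, 4 hypertensive and 4 normotensive libraries, 0 genes passed and 671 had an unadjusted p under 0.05. In males, 3 hypertensive and 4 normotensive libraries, 0 passed as higher and 12 as lower, and 2092 had an unadjusted p under 0.05. A term for the difference between the sexes called 0 of 16180 genes, with 848 at an unadjusted p under 0.05 and a smallest adjusted p of 0.608. From that model Lyve1 had differences of -3.23 in males and -1.56 in females, Clec14a -1.59 in males and -0.82 in females, and Ano3 1.58 in males and 2.11 in females. Each of these 3 genes kept its direction in both sexes. Of the 38 lists 18 had medians of opposite sign in females and in males, and 4 had a median of opposite sign without the 3 least correlated libraries. The differences between the sexes in list medians were not tested. CON held 1 female, and HC and HC/HT held 1 male each. In list medians, sex therefore cannot be told apart from Apoe genotype or from single libraries.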

How the data were processed

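RNA of aortic valves was measured in 15 libraries. Per the labels' protocols, RNA was extracted with Trizol, and cDNA was amplified with the Nugen Ovation RNA-Seq System v2. Build mm10 and the tools Bowtie 1.0.1, SAMtools 0.1.9, FastQC 0.11.2 and edgeR are listed, per the submitters' processing notes, without saying how values were normalised. For 20992 rows the authors deposited normalised counts rounded to whole numbers, treated here as a score. Of these, 17944 matched a current symbol, 798 an older one and 2250 none. 1 of the 16 value columns has no name and was not used. Because totals were equal, depth is unknown; whether counting used strand is not stated, so overlapping genes cannot be told apart.

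Each library was scaled to 1000000 without its 4 most abundant rows. Testing covered genes that reached 1 unit in 4 or more libraries, with limma 3.58.1 in R 4.3.3 (trend, robust) on log2 of the value plus 1, which understates differences of low genes, with the transgenes, Apoe status and sex as terms. P-values are two-sided with Benjamini-Hochberg adjustment over all genes tested. The script was tested on simulated data. Genes were named by smallest p among named protein-coding genes, 8 per direction where fewer passed. A fixed set and 2 to 4 members per list were named beside them. A few more that separated the groups, or that followed in a list, were named after their values were seen. The members, lists and rule were chosen with earlier results of these data known. Alternatives were other scalings, pseudocounts, filters, terms and weights, each sex alone, a replicate block and leaving out each library; leaving out the 3 least correlated libraries and the sex by transgene term were added after seeing the data. Gene positions are from RefSeq on GRCm38. Results for a few list members are not reported here.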

Additional observations from a re-analysis of the deposited data

Results flagged for a closer look

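In 30 genes, 60 groups of 7 or 8 libraries were looked at, and in 13 a single library stood far from the nearest other one. Chance flags about 1 in 20 groups of normally distributed values; these levels are skewed, 12 of the 13 were a highest library, and the rate for such values was not tested. Ptchd1 stood at 75.75 units in HC/HT replicate 1 (next hypertensive library 29.69) and at 15.28 in HC replicate 2 (next normotensive library 9.493). Crhbp was at 8.954 in HC/HT replicate 1 (next 4.378) and 2.11 in HC replicate 1 (next 0.8691). HT replicate 2 held the highest hypertensive Lyve1, 56.56 units (next 19.59), and Nppa, 5174 (next 119.5). Col3a1 was highest in HC/HT replicate 2, at 1954 units (next 998.9), among hypertensive and in HC replicate 2, at 3628 (next 1992), among normotensive libraries. The other normotensive libraries that stood apart were CON replicate 2 for Neto2 at 3.766 units (next 1.452), CON replicate 1 for Aar2 at 40.73 (next 27.74) and for Nppb at 12.13 (next 5.545), HC replicate 3 for Spp1 at 3258 (next 1246), and CON replicate 4 for Ace, lowest at 135.5 (next 248.5).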

How the results depend on the processing

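Over 31 settings the counts of genes at an adjusted p under 0.05 stayed near 0. There was 1 higher gene with quantile normalisation, with a pseudocount of 4 and without the 3 least correlated libraries, 8 lower on the values as deposited and 12 lower in males alone. An adjusted p under 0.1 gave 2 higher and 2 lower. Leaving out 1 library gave 0 to 3 higher and 0 to 15 lower: 3 and 15 without HC replicate 4, 3 and 2 without HT replicate 2, 1 and 4 without HC/HT replicate 3, and 2 and 1 without CON replicate 1. Genes at an unadjusted p under 0.05, 1525, became 2758 on the values as deposited and 671 in females alone, and 1049 to 1976 with 1 library left out. With a replicate block 1 gene was higher, 1 lower and 1941 at an unadjusted p under 0.05. Deviations of same-numbered libraries from their group means correlated between -0.10 and 0.26 in 21 pairs, with a mean of 0.07. In the 63 pairs of unlike number the mean was -0.02, but these pairs were not alike. Pairs within replicates 1 and 2, or within replicates 3 and 4, were mostly positive. HT replicate 4 with HC/HT replicate 3 reached 0.33, and HT replicate 1 with CON replicate 2 reached 0.27. Pairs across these 2 sets were mostly negative, such as -0.24 for HT replicate 2 with HC replicate 4, though HT replicate 3 with HC/HT replicate 1 had 0.20. Only equal numbers were set apart in a fit, so a grouping that spans replicate numbers was not tested. The cause of each change was not tested.

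Of 927 values of the 30 named genes under alternatives, 888 kept direction and side of the threshold, 24 went past it and 15 turned. Apoe turned to 0.12 in females alone, 0.068 without HT replicate 3 and 0.054 without the 3 least correlated libraries; in that last setting Nppa was -0.90, Postn 0.080 and Tgfb1 0.087. Nppa was -2.18 in males alone and -0.29 without HT replicate 2, Acta2 0.15 in females alone and 0.035 without HT replicate 3, and Col1a1 0.019 without HC/HT replicate 1. Fn1 was 0.028 with array weights and 0.0066 without HC replicate 2, Postn 0.012 with quantile normalisation and Ace -0.044 on the values as deposited. With 1 library left out, Apoe ran between -0.63 and 0.068, Nppa between -0.29 and 1.35, Col1a1 between -0.19 and 0.019, Fn1 between -0.28 and 0.0066 and Acta2 between -0.85 and 0.035. Of 1178 list medians 31 moved beyond their spread. Depth is unknown, so levels of a few units carry little precision.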
